A study of Mus musculus with 2 samples.

Results

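The autophagy machinery genes are the genes whose symbols begin with Atg and a digit, Ulk1 to Ulk4, Wipi, Gabarap or Map1lc3, together with Becn1, Sqstm1, Optn, Nbr1, Tax1bp1, Pik3c3, Pik3r4, Rb1cc1, Tfeb and Tfe3. This rule found 39 of the 19059 genes in the matrices. One of them, Atg4a-ps, had 4 UMIs (unique molecular identifiers, 1 for each captured probe molecule) in all kept cells and is not described further, and the other 38 had at least 3405. The data are 2 single-cell RNA-seq libraries of flash-frozen hippocampus of C57BL/6 mice, from cells that were fixed and counted with a probe-based kit. One library is of control mice and one of mice given tomatidine, a steroidal alkaloid of tomato. Each library pooled 4 mice that were 21 months old at the start, and the treated mice ate a diet with 0.05% tomatidine for 3 months. The study used both sexes, and the sexes of the pooled mice were not given. After filtering, 15115 control cells and 14502 tomatidine cells were kept, with medians of 7066 and 7407 UMIs per cell. The deposited matrices held 15912 and 15185 cells with 279525565 and 259059908 UMIs. These totals include the removed cells, whose UMIs do not enter the main levels and ratios.

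Macroautophagy encloses cytoplasm in a double membrane, the autophagosome, which then fuses with the lysosome. The ULK1 kinase complex starts the process, the class III phosphatidylinositol 3-kinase marks the membrane, ATG9 and ATG2 bring lipid, and a ubiquitin-like conjugation system attaches LC3 and GABARAP proteins of the ATG8 family to the membrane. Cargo receptors such as p62, encoded by Sqstm1, join ubiquitinated cargo to ATG8 proteins and are degraded with it, while TFEB and TFE3 drive transcription of lysosomal and autophagy genes. Neurons do not divide and rely on the pathway to clear protein aggregates and organelles, and the level of an mRNA does not measure the flux through it.

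Cells were grouped into classes by clustering without the 39 genes and by naming clusters from marker lists, and UMIs were summed per class and library. Levels are UMIs per 1000000 UMIs of the class (CPM), written with the control library first. Because the kit counts probes, CPM was compared between classes and libraries within a gene and not between genes. Differences between libraries are log2 ratios of CPM, tomatidine over control, each followed by its 95% interval from counting in parentheses. With 1 library per group there was no replicate, so no test between treatments was possible, the intervals cover counting error only, and library and diet cannot be told apart. The sum of Y-linked genes was 193 and 194 CPM, and the libraries shared 292 cell barcodes. The 9 classes with at least 100 cells in each library were excitatory neuron-like (4507 control and 3844 tomatidine cells), oligodendrocyte-like (3017 and 2323), astrocyte-like (1837 and 2132), microglia-like (917 and 815), interneuron-like (549 and 513), OPC-like (oligodendrocyte precursors, 376 and 349), endothelial-like (300 and 422), fibroblast-like (287 and 527) and subcortical neuron-like (179 and 666). The excitatory neuron-like class held 4 kinds, dentate granule (2735 and 2116), CA1 (632 and 543), CA3 (368 and 310) and cortical or subicular neuron-like cells (584 and 589). Its remaining 188 and 286 cells, 4.17% and 7.44% of the class, were 1 cluster with no kind. The subcortical neuron-like cells came mostly from the tomatidine library and had Pou4f2, Barhl1 and Tfap2d among their leading genes, which are not markers of hippocampal principal neurons. Choroid plexus-like cells numbered 346 in the control and 31 in the tomatidine library, and the summed choroid plexus markers were higher in the control library in all 9 classes, for example 2314 and 93.6 CPM in endothelial-like cells.

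The DNA before the transcription start is shown for Sqstm1 because its level was lower with tomatidine in every class, for Optn because its ratio lay on both sides of 0, and for Atg3 because it held the TFEB motif more than once. The sequences are from RefSeq (GRCm38.p6), 5′ to 3′ on the strand of the gene, and stop before the earlier of the RefSeq and GENCODE starts. Capitals mark CACGTG, the E-box core of the CLEAR element to which TFEB and TFE3 bind, and GGGCGG, the GC box, on either strand.
Sqstm1, chr11:50210828-50211070, minus strand: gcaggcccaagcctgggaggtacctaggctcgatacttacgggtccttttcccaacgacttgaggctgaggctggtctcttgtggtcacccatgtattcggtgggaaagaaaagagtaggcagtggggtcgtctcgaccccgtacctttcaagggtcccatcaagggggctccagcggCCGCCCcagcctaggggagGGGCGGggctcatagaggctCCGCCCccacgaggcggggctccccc
Optn, chr2:5064118-5064367, minus strand: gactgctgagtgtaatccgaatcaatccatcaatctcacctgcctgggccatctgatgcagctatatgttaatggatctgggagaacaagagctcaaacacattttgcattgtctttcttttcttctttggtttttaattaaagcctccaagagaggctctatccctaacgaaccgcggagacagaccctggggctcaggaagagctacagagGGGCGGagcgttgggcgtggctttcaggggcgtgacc
Atg3, chr16:45158579-45158784, plus strand: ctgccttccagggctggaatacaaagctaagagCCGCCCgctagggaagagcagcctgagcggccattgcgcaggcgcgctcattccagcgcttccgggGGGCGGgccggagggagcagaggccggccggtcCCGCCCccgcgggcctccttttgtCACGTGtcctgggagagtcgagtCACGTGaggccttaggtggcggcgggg

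RefSeq promoters were found for 32 of the 39 members. In the 250 bases before the start, CACGTG was present in 3 of these 32 genes (9.38%), namely Atg3, Atg5 and Atg7, against 8.14% of the 14935 genes of the matrices with a promoter and 6.02% of all 32851 promoters. The GC box was present in 20 of the 32 (62.5%), against 50.01% of those genes and 32.7% of all promoters. A match is a description of the letters in the window and not evidence of binding. Sqstm1 and Optn had no CACGTG in this window. The windows of Atg7, Atg4b, Atg14, Wipi1 and Wipi2, among others, lay wholly inside the GENCODE gene, and some other windows overlapped it in part.

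The first question was in which classes of cells each gene was expressed. The range of levels over the 9 classes differed from gene to gene. For 20 of the 38 members the highest class was less than 2 times the lowest, with the smallest ratios for Atg2a (1.39-fold), which transfers lipid, Atg14 (1.39-fold), which directs the kinase complex to autophagy, and Map1lc3b (1.48-fold), an LC3 gene. In 8 members it was more than 3 times the lowest. Tfeb differed between classes by 23.7 times, Atg9b by 17.9, Wipi1 by 11.6, Optn by 7.83 and Ulk4 by 6.51 times, followed by Tfe3 (3.76), Gabarapl1 (3.39) and Atg4c (3.08). The highest class was the same in each library for 31 of the 38. The shares of all genes for these counts, and for the counts of highest classes below, were not computed.

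The transcription factors occupied different cell types. Tfeb was highest in oligodendrocyte-like cells at 118 and 123 CPM, then in endothelial-like cells at 60.2 and 62.1 and microglia-like cells at 60.8 and 52.1. Its order continued through OPC-like (47.7 and 38.7), fibroblast-like (25.3 and 29.7), astrocyte-like (29.6 and 24.6), subcortical neuron-like (17.0 and 17.0) and interneuron-like cells (10.5 and 7.71) to excitatory neuron-like cells at 4.65 and 5.54 CPM. The 95% Poisson intervals ran from 113 to 123 and 118 to 129 in oligodendrocyte-like to 4.23 to 5.09 and 5.03 to 6.09 in excitatory neuron-like cells. Neighbours in this order overlapped between endothelial-like and microglia-like, microglia-like and OPC-like, OPC-like and fibroblast-like, and fibroblast-like and astrocyte-like cells, and the other neighbours were apart in both libraries. Tfe3 was instead highest in microglia-like cells at 103 and 87.5 CPM, apart from the next class, endothelial-like cells, at 34.7 and 33.2, and its mean over the libraries was lowest in oligodendrocyte-like cells at 24.8 and 25.8. All neighbours in the order of Tfe3 below microglia-like cells overlapped, and in the tomatidine library OPC-like and fibroblast-like cells were lower than oligodendrocyte-like cells, at 24.6 and 25.6 CPM. In excitatory neuron-like cells, where Tfeb was lowest, the summed oligodendrocyte markers stood at 1140.2 and 1268 CPM against 68641 and 66205 in oligodendrocyte-like cells, and the part of other cells' RNA in the low Tfeb level was not tested.

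Oligodendrocyte-like cells also had the highest level of 8 other members, and subcortical neuron-like cells of 11. Wipi1, which binds phosphatidylinositol 3-phosphate on the forming membrane, reached 95.02 and 94.8 CPM in oligodendrocyte-like cells. It was 35.8 and 29.4 CPM in the next class and 7.98 and 8.45 in interneuron-like cells. Its paralog Wipi2, the one that recruits ATG16L1, was nearly even, from 81.8 and 85.1 CPM in microglia-like to 136 and 137 in oligodendrocyte-like cells. Atg4c, a protease that processes ATG8 proteins, was 159 and 172 CPM in oligodendrocyte-like cells and 74.7 and 80.7 in the next class. Pik3c3, the catalytic subunit VPS34, was 106 and 99.2 CPM and Atg3, the E2-like enzyme of the conjugation system, 88.3 and 89.5 CPM, each with intervals apart from the next class in both libraries. Nbr1, a receptor for ubiquitinated cargo, was 148 and 169.8 CPM there and 134 and 132 in OPC-like cells. Gabarap, at 112 and 112, and the protease gene Atg4d, at 43.1 and 42.9 CPM, were highest in oligodendrocyte-like cells too, and, like Nbr1 and Wipi2, overlapped with the next class in at least 1 library.

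Of the 5 ATG8 genes, 3 were highest in neurons. Gabarapl1, an ATG8 gene abundant in brain, was highest in interneuron-like cells at 933 and 888 CPM, followed by subcortical neuron-like (844 and 841) and excitatory neuron-like cells (728 and 705), and lowest in microglia-like cells (264 and 273). Map1lc3a and Gabarapl2 were highest in subcortical neuron-like cells at 492 and 446 and 401 and 372 CPM, with Map1lc3a in excitatory neuron-like cells at 275 and 268. Within the excitatory neurons Map1lc3a separated the kinds, with 162 and 154 CPM in dentate granule neuron-like, 309.8 and 265 in CA1 neuron-like, 343 and 327 in CA3 neuron-like and 451 and 412 in cortical or subicular neuron-like cells. Map1lc3b ran from 176 and 168 CPM in fibroblast-like to 263 and 248 in endothelial-like cells. Gabarap ran from 72.8 and 61.9 in excitatory neuron-like to 112 and 112 in oligodendrocyte-like cells, whereas Gabarapl1 was 312 and 321 CPM in oligodendrocyte-like cells.

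Of the 7 genes of the ULK1 complex and related kinases, 5 were highest in a neuron class. Among these 5, only Atg101 had intervals apart from the second class in both libraries. The second class was endothelial-like for Ulk1 (68.5 and 75.2 CPM) and fibroblast-like for Ulk4 (15.3 and 7.43 CPM). Atg101, a subunit of the ULK1 complex, was 86.7 and 81.9 CPM in excitatory neuron-like cells, apart from the next class at 57.9 and 51.5, and 30.6 and 28.5 in fibroblast-like cells. Rb1cc1, which encodes the scaffold FIP200, was 106 and 105 CPM in excitatory neuron-like and 68.5 and 67.3 in astrocyte-like cells, and Atg13 was 87.2 and 83.1 CPM in subcortical neuron-like cells. Becn1, which encodes the Beclin 1 subunit of the class III kinase, was also highest in excitatory neuron-like cells, at 151 and 151 CPM, and lowest in oligodendrocyte-like cells, at 85.6 and 88.7. Ulk1 was highest in subcortical neuron-like cells (80.6 and 85.1 CPM), whereas Ulk2 was highest in microglia-like cells (158 and 156 CPM, intervals apart from the next class) and lowest in those subcortical neuron-like cells (77.7 and 74.6). Ulk4, a family member predicted to lack kinase activity, was 18.4 and 23.3 CPM in excitatory neuron-like cells and 2.39 and 4.01 in oligodendrocyte-like cells.

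Atg9b, the second gene for the lipid scramblase ATG9, was mostly neuronal. It was 28.1 and 32.3 CPM in subcortical neuron-like cells and 17.1 and 18.1 in interneuron-like cells, but 5.44 and 5.35 in excitatory neuron-like cells and 1.22 and 2.15 in oligodendrocyte-like cells. The intervals of the neuron classes were apart from each other in both libraries. Its paralog Atg9a, expressed in all classes, was 179 and 175 CPM in subcortical neuron-like and 131 and 114 in oligodendrocyte-like cells. Among excitatory neurons Atg9b was 11.1 and 12.2 CPM in cortical or subicular and 9.79 and 7.76 in CA1 neuron-like cells, and 1.64 and 1.67 in dentate granule neuron-like cells. Pooled over all kept cells, Atg9b was 6.86 and 9.93 CPM, a log2 ratio of 0.53 (0.43 to 0.63), whereas within subcortical neuron-like cells, which made up more of the tomatidine library, it was 0.21 (-0.05 to 0.47) and within interneuron-like cells 0.08 (-0.19 to 0.35). The pooled ratio was larger than that within either class that expressed the gene most, and the comparisons below were made within classes.

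Among the 4 cargo receptors, Sqstm1, Tax1bp1 and Optn had their highest levels in subcortical neuron-like and interneuron-like cells, and Nbr1 in oligodendrocyte-like cells. Optn, which encodes optineurin and acts in the removal of damaged mitochondria, was highest in interneuron-like cells at 71.7 and 70.3 CPM and lowest in excitatory neuron-like cells at 7.41 and 10.7, apart from the next class, microglia-like cells. Among the excitatory kinds it was 1.57 and 2.27 CPM in dentate granule, 4.11 and 6.14 in CA1, 11.0 and 13.5 in cortical or subicular and 22.7 and 30.5 in CA3 neuron-like cells. Sqstm1 was highest in subcortical neuron-like cells at 306 and 282 CPM and lowest in microglia-like cells at 124 and 119. Tax1bp1 was 179 and 164 in subcortical neuron-like and 109 and 107 CPM in oligodendrocyte-like cells.

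**Figure D1:**
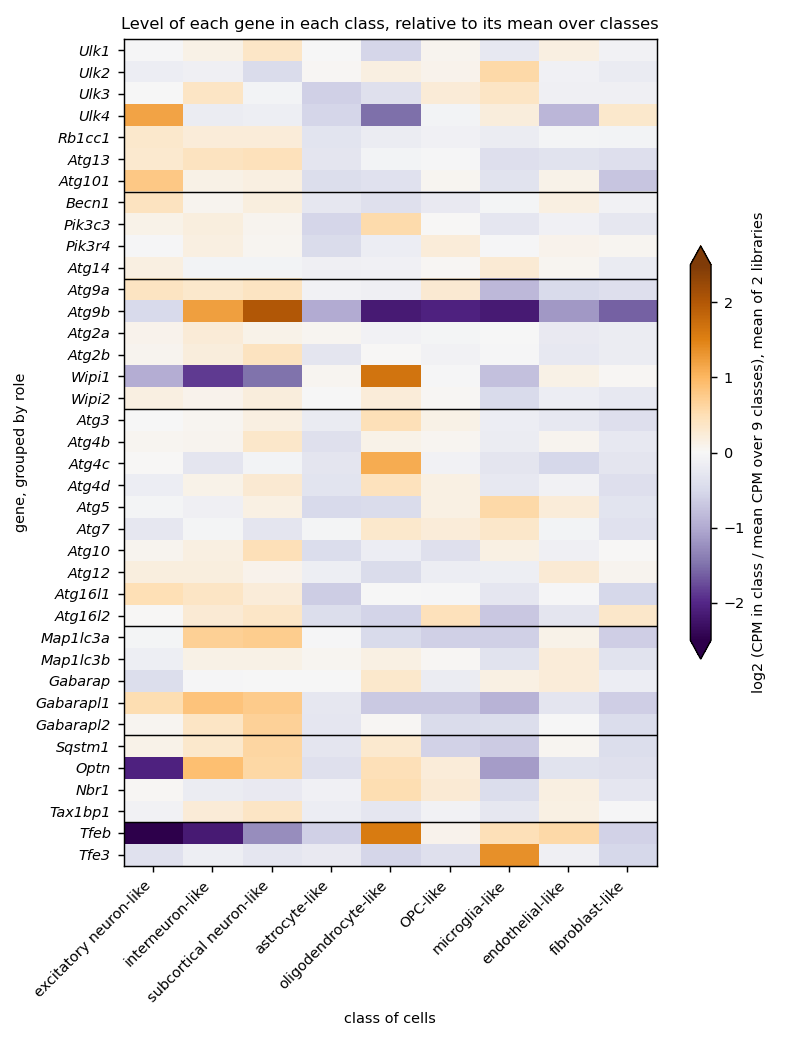
Heat map of 38 genes (rows, grouped by role) in 9 classes (columns). Colour gives log2 of the CPM in a class over the mean CPM of that gene over the classes, averaged over both libraries, and the rows of Tfeb, Atg9b, Wipi1, Optn and Ulk4 hold the strongest colours.

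The remaining members peaked elsewhere and varied less. Microglia-like cells were highest for Atg5, part of the ATG12-ATG5 conjugate, at 46.6 and 41.5 CPM, for Atg7, its E1-like enzyme, at 39.3 and 43.2, for Ulk3 at 24.8 and 24.9 and for Atg14 at 26.3 and 22.8. OPC-like cells were highest for Atg16l2 (26.4 and 27.3 CPM), a paralog of the conjugation platform gene Atg16l1, and for Pik3r4 (35.8 and 36.9 CPM), which encodes the VPS15 subunit. Atg16l1 itself was highest in excitatory neuron-like cells (66.0 and 66.4 CPM), Atg12 in endothelial-like cells (55.0 and 58.1 CPM) and Atg2a in interneuron-like cells (54.5 and 60.7 CPM). Subcortical neuron-like cells were highest for Atg4b (102 and 102 CPM), the E2-like Atg10 (20.4 and 20.1) and Atg2b (82.2 and 80.4). Classes were ranked by the mean CPM of both libraries. In the control library alone, interneuron-like cells were highest for Ulk3 (25.9 CPM), Pik3r4 (37.4) and Atg12 (55.6). In the tomatidine library alone, excitatory neuron-like cells were highest for Atg14 (22.9 CPM), and Atg9a, Atg13 and Wipi2 also had another highest class. The highest class was apart from the second in both libraries for 14 of the 38 members, and the other 24 overlapped in at least 1 library. Intervals narrow with the depth of a gene, and the share of all genes with these classes apart was not computed.

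**Figure D2:**
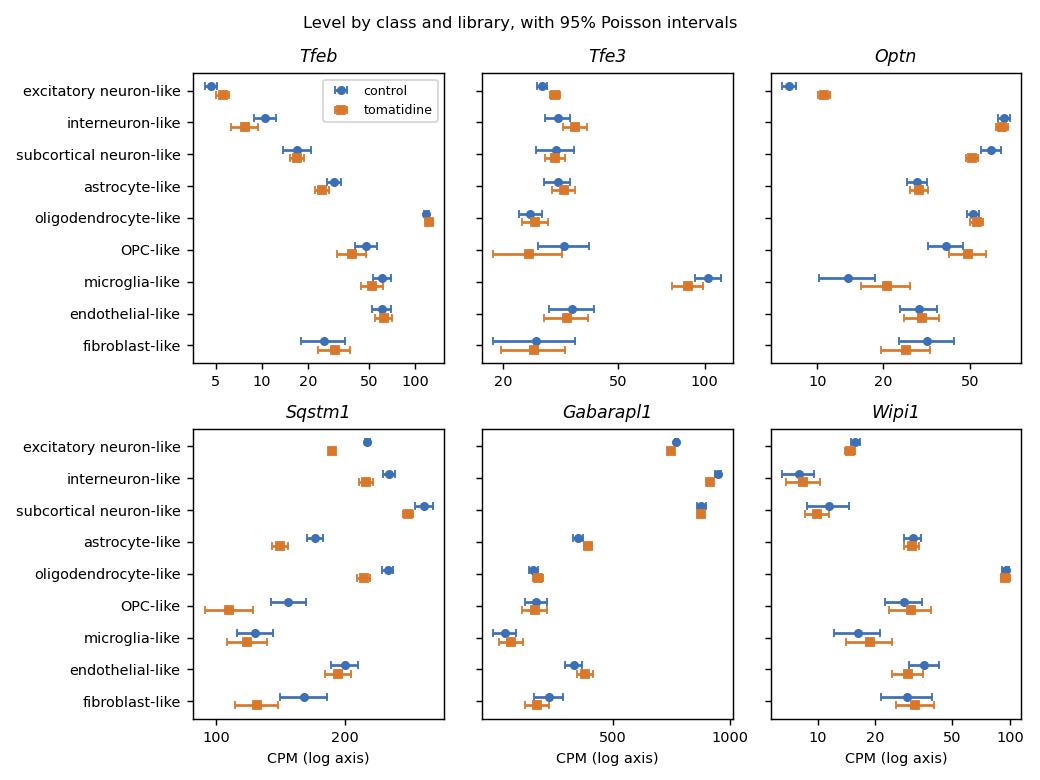
CPM (log axis) of 6 genes in 9 classes, with circles for the control and squares for the tomatidine library and bars for 95% Poisson intervals. Tfeb was highest in oligodendrocyte-like and lowest in excitatory neuron-like cells in both libraries, Tfe3 was highest in microglia-like cells, and the Sqstm1 squares lie below the circles in every class.

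The second question was whether the machinery differed between the tomatidine and control libraries within a class. The median log2 ratio of the members with at least 100 UMIs lay between -0.03 and 0.03 in the 9 classes, and the median of all genes with that many UMIs between -0.04 and 0.04. A member was counted as past the fold, which stands in for a test here, when its CPM was at least 25% higher in one library than in the other, with at least 100 UMIs over both. The share of all genes with as many UMIs that passed in the same direction is given beside each count.

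Higher with tomatidine were 3 of 35 members in OPC-like cells (9.4% of all genes), 1 of 38 in astrocyte-like cells (4.48%), 1 of 35 in endothelial-like cells (8.66%), 2 of 38 in excitatory neuron-like cells (8.74%) and 3 of 30 in fibroblast-like cells (8.92%). There were 0 of 38 in interneuron-like cells (7.34%), 2 of 35 in microglia-like cells (11.8%), 1 of 37 in oligodendrocyte-like cells (7.02%) and 1 of 38 in subcortical neuron-like cells (9.22%). Lower were 6 of 35 in OPC-like cells (7.74%), 0 of 38 in astrocyte-like cells (4.71%), 1 of 35 in endothelial-like cells (7.79%), 0 of 38 in excitatory neuron-like cells (1.09%) and 3 of 30 in fibroblast-like cells (13.5%). A further 1 of 38 was lower in interneuron-like cells (2.36%), 0 of 35 in microglia-like cells (5.2%), 1 of 37 in oligodendrocyte-like cells (2.15%) and 1 of 38 in subcortical neuron-like cells (5.83%). The 6 lower members of OPC-like cells exceeded the share of all genes, and the other counts were near it or below it. The classes with few cells had wide intervals, so small differences were not detectable there at this depth.

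**Figure D3:**
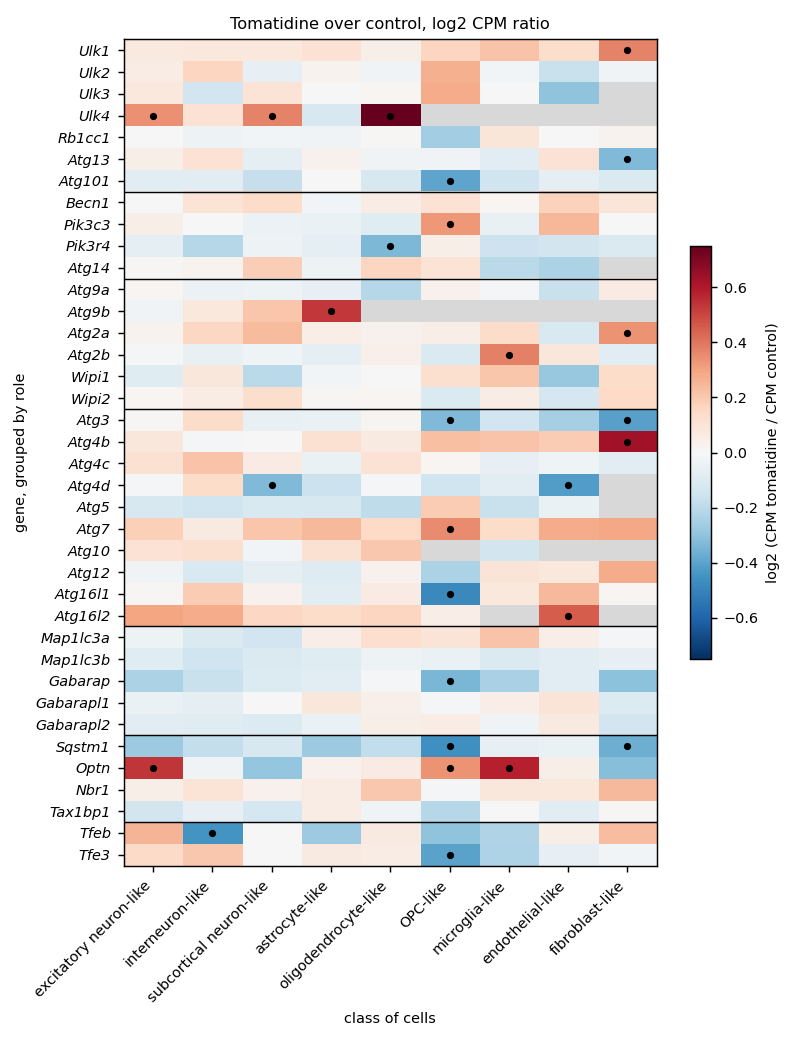
Heat map of log2 CPM ratios, tomatidine over control, for 38 genes (rows, grouped by role) in 9 classes (columns). Grey cells had fewer than 100 UMIs over both libraries and dots mark ratios past the 25% fold, 9 of which lie in the OPC-like column and 6 in the fibroblast-like column.

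Sqstm1 was lower with tomatidine in all 9 classes. It was 226 and 187 CPM in excitatory neuron-like cells, a log2 ratio of -0.27 (-0.30 to -0.24), and 171 and 141 CPM in astrocyte-like cells, -0.27 (-0.36 to -0.18). The largest differences were in OPC-like cells at 148 and 107 CPM, -0.46 (-0.69 to -0.23), and in fibroblast-like cells at 161 and 125 CPM, -0.37 (-0.61 to -0.12), and these passed the fold. Oligodendrocyte-like cells were at 252 and 221 CPM, -0.19 (-0.25 to -0.12), interneuron-like cells at 254 and 224, -0.18 (-0.25 to -0.11), and subcortical neuron-like cells at 306 and 282, -0.12 (-0.20 to -0.04). The interval was below 0 in these 7 classes and included 0 in microglia-like cells, 124 and 119 CPM and -0.06 (-0.27 to 0.15), and in endothelial-like cells, 200.01 and 193 CPM and -0.05 (-0.20 to 0.10). The endothelial-like value turned to 0.11 with each cell weighted equally and to 0.092 under a stricter cell filter. All 4 kinds of excitatory neuron-like cell also had lower Sqstm1, with -0.32 (-0.36 to -0.27) in dentate granule, -0.35 (-0.43 to -0.27) in CA1, -0.27 (-0.33 to -0.21) in cortical or subicular and -0.11 (-0.22 to -0.003) in CA3 neuron-like cells.

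**Figure D4:**
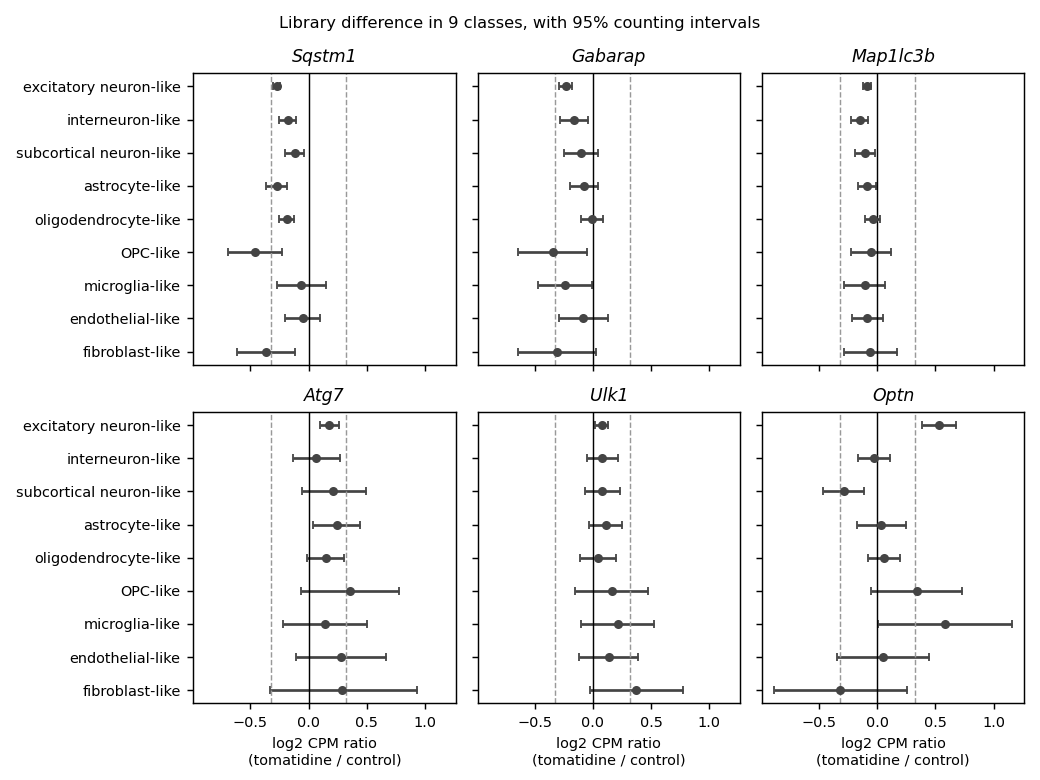
Log2 CPM ratio (tomatidine over control) of 6 genes in 9 classes, with points for the ratio, bars for the 95% counting interval, a solid line at 0 and dashed lines at the 25% fold in either direction. Sqstm1, Gabarap and Map1lc3b lie below 0 and Atg7 and Ulk1 above 0 in every class, while Optn lies on both sides.

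Among the 30 members with at least 100 UMIs in every class, 3 were below 0 in all 9 classes (Sqstm1, Gabarap and Map1lc3b) and 2 above 0 in all 9 (Atg7 and Ulk1). Of the 7384 genes measured this deeply in every class, 2.25% were below 0 throughout and 3.14% above. The classes of a library share its free RNA and its preparation, so a common direction is not 9 independent observations. Gabarap was 72.8 and 61.9 CPM in excitatory neuron-like cells, -0.24 (-0.29 to -0.18), and 87.9 and 69.2 in OPC-like cells, -0.34 (-0.64 to -0.05), past the fold in the latter, and in oligodendrocyte-like cells the ratio was -0.01. Map1lc3b had small ratios, from -0.04 in oligodendrocyte-like to -0.15 in interneuron-like cells, where it was 251 and 226 CPM with an interval below 0. Atg7 was above 0 by 0.07 in interneuron-like to 0.35 in OPC-like cells. Its interval excluded 0 in excitatory neuron-like cells, 25.2 and 28.5 CPM and 0.18 (0.09 to 0.26), and in astrocyte-like cells, 28.9 and 34.1 CPM and 0.24 (0.04 to 0.44). Ulk1 ranged from 0.04 to 0.37, and its interval excluded 0 in 1 of the 9 classes, excitatory neuron-like cells, at 0.08 (0.02 to 0.13). Each of these genes changed sign in at least 1 class under some alternative. Besides Sqstm1 in endothelial-like cells, these were Ulk1 in interneuron-like cells to -0.28 under the stricter cell filter and -0.16 with each cell weighted equally, Map1lc3b in OPC-like cells to 0.020 under that filter and in endothelial-like cells to 0.012 in marker-gated cells, Gabarap in oligodendrocyte-like cells to 0.0037 without integration, and Atg7 in interneuron-like cells to -0.0051 under that filter and in microglia-like cells to -0.011 with each cell weighted equally.

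No ATG8 gene passed the fold in a neuron class, and their ratios there were all below 0. All 5 genes had counting intervals below 0 in excitatory neuron-like cells (17.8% of all genes), where the ratios lay between -0.24 and -0.04, and in interneuron-like cells (10.1%), where they lay between -0.16 and -0.07. All 5 ratios were below 0 in subcortical neuron-like and fibroblast-like cells as well. Of their intervals, 3 excluded 0 in the former (13.8% of all genes) and 0 in the latter (10.8%). These shares also take in much shallower genes, down to the minimum of 100 UMIs. The ATG8 genes had from 31916 to 274811 UMIs over all kept cells, and deeper genes have narrower intervals. The shares were not matched for depth, so they cannot show how unusual the family is. Map1lc3a was lower in interneuron-like cells, 470.0 and 436 CPM and -0.11 (-0.16 to -0.05), and higher in oligodendrocyte-like cells, 195 and 213 CPM and 0.13 (0.06 to 0.20), and in microglia-like cells, 174 and 202 CPM and 0.21 (0.05 to 0.38). Gabarapl1 was 406 and 431 CPM in astrocyte-like cells, 0.09 (0.03 to 0.14), and 933 and 888 in interneuron-like cells, -0.07 (-0.11 to -0.03). Within the excitatory kinds, CA1 neuron-like cells had the lowest family median, -0.22, with Map1lc3a at 309.8 and 265 CPM, -0.23 (-0.29 to -0.17), and Gabarapl1 at 767 and 669 CPM, -0.20 (-0.24 to -0.16). The CA1 cells of the control library were also deeper, with a median of 24732 UMIs against 17234, and the part of this in the ratios was not tested. A difference between neurons and glia was not tested.

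Optn had the largest difference of any member in excitatory neuron-like cells and the opposite sign in another neuron class. It was 7.41 and 10.7 CPM there, from 721 and 835 UMIs, a log2 ratio of 0.53 (0.39 to 0.68). All 4 kinds had positive ratios, from 0.29 (0.01 to 0.57) in cortical or subicular to 0.58 (0.11 to 1.05) in CA1 neuron-like cells. When both libraries were given the same mix of clusters the ratio was 0.27. Summed markers of interneurons, in which Optn was highest, were 312 and 348 CPM in these cells, and their part in the ratio was not tested. In microglia-like cells Optn was 13.9 and 20.8 CPM from 47 and 61 UMIs, 0.58 (0.01 to 1.16), and in OPC-like cells 38.9 and 49.2 CPM, 0.34 (-0.05 to 0.73). In subcortical neuron-like cells it was lower, at 62.5 and 51.2 CPM and -0.29 (-0.47 to -0.11). The lowest Optn ratio was in fibroblast-like cells, -0.32, just short of the fold and with an interval that included 0. Under the alternatives it ran there from -0.72 to -0.28. Interneuron-like cells, with the highest level, had 71.7 and 70.3 CPM and -0.03 (-0.16 to 0.11). The other receptors differed less, Tax1bp1 being 131 and 119 CPM in excitatory neuron-like cells, -0.14 (-0.18 to -0.10), and Nbr1 148 and 169.8 CPM in oligodendrocyte-like cells, 0.20 (0.12 to 0.28).

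Tfeb and Tfe3 went the same way in some classes and apart in others. In excitatory neuron-like cells Tfeb was 4.65 and 5.54 CPM, 0.25 (0.06 to 0.45), and Tfe3 27.3 and 30.2 CPM, 0.14 (0.06 to 0.23). Among the kinds, the Tfeb ratio was 0.44 (0.09 to 0.79) in cortical or subicular, 0.31 (-0.12 to 0.74) in CA1 and 0.01 (-0.36 to 0.37) in dentate granule neuron-like cells, and it turned to -0.11 under the stricter cell filter. In interneuron-like cells Tfeb was 10.5 and 7.71 CPM, -0.45 (-0.84 to -0.06), past the fold and the only such member there, while Tfe3 was 30.9 and 35.5 CPM, 0.20 (0.01 to 0.40). Summed markers of oligodendrocytes, in which Tfeb was highest, were 2569 and 2158 CPM in interneuron-like cells, and their part in the Tfeb ratio was not tested. In astrocyte-like cells Tfeb was 29.6 and 24.6 CPM, -0.27 (-0.49 to -0.05), beside oligodendrocyte markers of 7982 and 6103 CPM, again not tested. In oligodendrocyte-like cells, where Tfeb was most abundant, it was 0.07 (-0.02 to 0.16).

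OPC-like cells held 9 of the members past the fold. Lower were Atg16l1 at 53.4 and 38.3 CPM, -0.48 (-0.88 to -0.09), Sqstm1 as above and Tfe3 at 32.5 and 24.6 CPM, -0.40 (-0.91 to 0.10). Atg101 was -0.39 (-0.77 to -0.03), Gabarap -0.34 (-0.64 to -0.05) and Atg3 -0.33 (-0.65 to -0.02). Higher were Atg7 at 33.5 and 42.8 CPM, 0.35 (-0.07 to 0.78), Optn, whose ratio was -0.043 in marker-gated cells, and Pik3c3 at 62.9 and 78.8 CPM, 0.33 (0.02 to 0.63). These genes belong to initiation, the class III kinase, conjugation, the ATG8 family, the receptors and transcription. Summed oligodendrocyte markers in this class were 15709 and 8829.6 CPM, while its own precursor markers were 13934 and 15133, and the median depth was 6665 and 5511 UMIs per cell. Sqstm1, Gabarap and Atg3, which were lower, were more abundant in oligodendrocyte-like than in OPC-like cells of the same library, as was Pik3c3, which was higher. The part of the oligodendrocyte RNA in these ratios was not tested.

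Fibroblast-like cells had 6 members past the fold. Atg4b, the main ATG8 protease, was 53.3 and 82.6 CPM from 80 and 200 UMIs, 0.63 (0.25 to 1.02), and was the only one of the higher genes whose interval excluded 0. Ulk1 was 0.37 (-0.02 to 0.78) and Atg2a 0.33 (-0.14 to 0.82). Lower were Atg3 at -0.41 (-0.84 to 0.03), Sqstm1, and Atg13, a subunit of the ULK1 complex, at -0.33 (-0.77 to 0.11). Mural markers were 3682 and 5195 CPM and choroid plexus markers 2920.3 and 579.5 CPM in this class, and their part was not tested.

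Elsewhere single members passed the fold. In excitatory neuron-like cells Ulk4 was 18.4 and 23.3 CPM, 0.34 (0.25 to 0.44), and within the kinds the ratio was 0.80 (0.62 to 0.99) in CA1, where it was 23.4 and 40.8 CPM, but 0.17 (-0.20 to 0.55) in CA3 neuron-like cells. The ratio was 0.16 when cells were gated on markers instead of clustered. In oligodendrocyte-like cells Ulk4 was 2.39 and 4.01 CPM from 45 and 56 UMIs, 0.75 (0.15 to 1.34), and in subcortical neuron-like cells 7.15 and 9.26 CPM, 0.37 (-0.12 to 0.90). Ulk4 passed the fold in 3 classes, as did Optn. Pik3r4 was lower in oligodendrocyte-like cells at 30.7 and 24.4 CPM, -0.34 (-0.53 to -0.14). Atg2b, a lipid transfer protein gene, was higher in microglia-like cells at 51.4 and 66.7 CPM, 0.38 (0.08 to 0.68). Atg4d was lower in endothelial-like cells, 33.8 and 25.3 CPM and -0.42 (-0.82 to -0.02), and in subcortical neuron-like cells, 42.5 and 33.8 CPM and -0.33 (-0.55 to -0.11). Endothelial-like cells also had Atg16l2 at 13.5 and 18.4 CPM, 0.45 (-0.10 to 1.01), from 47 and 72 UMIs, and astrocyte-like cells Atg9b at 3.13 and 4.52 CPM, 0.53 (-0.08 to 1.154), from 37 and 64 UMIs. Atg16l2 was above 0 in all 7 classes with 100 UMIs, and was 17.2 and 25.8 CPM in CA1 neuron-like cells, 0.59 (0.36 to 0.81). It turned to -0.016 in OPC-like cells under the stricter cell filter and to -0.032 in oligodendrocyte-like cells with each cell weighted equally.

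The genes that surround the core were described with the same measure. For mTORC1, the nutrient sensor that restrains ULK1, and its inputs, the class medians of the 19 genes measured were between -0.04 and 0.05. Past the fold were 2 of 18 higher in OPC-like (9.4% of all genes) and 1 of 18 lower in endothelial-like cells (7.79%). In excitatory neuron-like cells 1 of 19 was higher (8.74%), and in fibroblast-like cells 1 of 19 was higher (8.92%) and 3 lower (13.5%). Rragd, a Rag GTPase gene and TFEB target, was 42.4 and 25.8 CPM in endothelial-like cells, -0.72 (-1.09 to -0.34), the lowest of the list, and Rragb was highest at 0.56 (0.09 to 1.03) in OPC-like cells. Fnip2, a folliculin partner, was -0.67 (-1.13 to -0.21) in fibroblast-like cells. Of 8 genes of AMPK, the energy sensor that activates ULK1, and its activators, all 8 were above 0 in endothelial-like cells (53.6% of all genes), 7 of 8 in astrocyte-like (52.1%) and excitatory neuron-like cells (63.7%), and 3 of 7 in microglia-like (57.0%) and OPC-like cells (56.1%). In the other 4 classes, 6 of 8 were above 0 in interneuron-like cells, 5 of 8 in oligodendrocyte-like and subcortical neuron-like cells and 4 of 6 in fibroblast-like cells. The counts of these 4 classes are not set beside the share of all genes above 0, so nothing is concluded from them. On this list Prkag2, a regulatory subunit, passed 1.5-fold, at 199 and 301 CPM and 0.60 (0.40 to 0.80) in fibroblast-like cells, and the lowest was Prkag1 at -0.42 (-0.79 to -0.05) in OPC-like cells. Past the 25% fold on this list were 1 of 7 higher (9.4% of all genes) and 2 lower (7.74%) in OPC-like cells. A further 1 of 6 was higher in fibroblast-like (8.92%) and 1 of 8 in oligodendrocyte-like cells (7.02%).

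Regulators of the class III kinase had the most extreme values in OPC-like cells, with 1 of 9 higher (9.4% of all genes) and 3 lower (7.74%). Nrbf2, a subunit of the ATG14 complex, was 39.2 and 23.7 CPM, -0.73 (-1.23 to -0.24), and Bcl2l1, which binds Beclin 1, was 144 and 92.0 CPM, -0.64 (-0.89 to -0.40), while Uvrag was highest at 0.43 (0.06 to 0.80). On this list 1 of 10 was higher in excitatory neuron-like (8.74%) and 1 of 9 in subcortical neuron-like cells (9.22%). In fibroblast-like cells 1 of 8 was higher (8.92%) and 1 lower (13.5%). Of 10 scaffold genes outside the rule, Hdac6, a deacetylase that binds ubiquitin, was 25.5 and 33.2 CPM in astrocyte-like cells, 0.38 (0.17 to 0.60), and highest on the list at 0.46 (-0.05 to 0.96) in microglia-like cells and lowest at -0.38 (-0.94 to 0.19) in fibroblast-like cells. On the scaffold list 1 of 10 was higher in astrocyte-like (4.48%), endothelial-like (8.66%) and oligodendrocyte-like cells (7.02%), and 2 in microglia-like cells (11.8%). In fibroblast-like cells 1 was higher (8.92%) and 1 lower (13.5%). Among 14 genes for fusion of the autophagosome with the lysosome, 4 of 13 were higher and 1 lower in OPC-like cells, where Stx17, the autophagosomal SNARE, was 38.9 and 54.2 CPM, 0.48 (0.10 to 0.86), and its partner Snap29 33.5 and 23.2 CPM, -0.53 (-1.04 to -0.03). On the fusion list 1 of 14 was higher in excitatory neuron-like (8.74%) and 1 of 13 lower in fibroblast-like cells (13.5%). In OPC-like cells the 4 of 13 fusion genes higher and the 3 of 9 regulators lower exceeded the shares of all genes there, 9.4% and 7.74%. Each list holds few genes, and these counts were not tested.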

How the data were processed

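The authors deposited filtered matrices in which each value is a UMI count, not normalized. The submitters' processing notes name Cell Ranger 8.0.0 and mm10, while the matrix header names Cell Ranger 7.1.0. From these counts, cells were kept when their UMIs numbered 500 or more and their genes over 250, when log10 genes divided by log10 UMIs exceeded 0.8, and when mitochondrial UMIs made up less than 20%. The 2% with the highest Scrublet scores in each library (scanpy 1.11.5) were removed, since Scrublet's own threshold marked 0 and 1 cells. Seurat 5.3.0 (R 4.3.3) integrated the libraries (RPCA, 2000 variable genes, 30 principal components) and clustered at resolution 0.8, without 116 genes that include the members and the related lists. Clusters were named from marker lists by a rule written once the clusters were known, and 13 of 40 clusters (2673 and 2793 cells) stayed unnamed.

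UMIs were summed per class and library. Intervals at 95% are exact Poisson for levels and exact conditional binomial for ratios (scipy 1.17.1), and the calculation was tested on simulated data. Every member was named with its highest class. Ratios were named when past the 25% fold with at least 100 UMIs over both libraries, with the ATG8 family, cargo receptors and transcription factors, and, from related lists, when highest, lowest or past 1.5-fold. The members and lists were chosen with earlier results of these data known. RefSeq and GENCODE vM21 gave positions on GRCm38. The alternatives in the closing section include TMM factors from edgeR 4.0.16. Atg4a and Lamtor1, which the lists name, were not analysed here.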

Additional observations from a re-analysis of the deposited data

Results flagged for a closer look

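Optn was flagged because its counting intervals excluded 0 on opposite sides in different classes and a ratio was past the fold. Its log2 ratio was 0.58 (0.01 to 1.16) in microglia-like cells, and 0.53 (0.39 to 0.68) in excitatory neuron-like cells, against -0.29 (-0.47 to -0.11) in subcortical neuron-like cells. Tfeb did the same with 0.25 (0.06 to 0.45) in excitatory neuron-like and -0.45 (-0.84 to -0.06) in interneuron-like cells, although the former turned to -0.11 under a stricter cell filter. Atg16l1 was 0.19 (0.05 to 0.34) in interneuron-like and -0.48 (-0.88 to -0.09) in OPC-like cells. Intervals of Map1lc3a (2 above 0 and 3 below) and Gabarapl1 (1 above and 2 below) also lay on both sides. None of their ratios passed the fold, so they were not flagged. These differences between classes were not tested, since each class has 1 library per group. The share of all genes with intervals on both sides of 0 was not computed, so the flagged members cannot be called distinctive.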

How the results depend on the processing

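No paired analysis was possible because each group is 1 library, and for the same reason no library was left out. All 77 recomputed class medians of the members stayed within the median bounds of the members' counting intervals. These bounds describe single genes, so staying within them says little about how stable a median is. The OPC-like median, 0.017, ran from -0.095 to 0.039 and kept its sign in 5 of 9 settings, and the fibroblast-like median in 4 of 8. In microglia-like and subcortical neuron-like cells the sign was kept in every setting. Of 208 recomputed counts past the fold, 148 stayed within 1.5 times the main count. Beyond the depth of each class, the counts rest on few genes near the fold. The cause of a change was not tested, except that a higher fold or minimum passes fewer genes by construction.

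At 1.5-fold, 1 member was higher in fibroblast-like cells and 0 in OPC-like, astrocyte-like, endothelial-like, excitatory neuron-like, microglia-like and subcortical neuron-like cells, and 0 were lower in OPC-like, endothelial-like, fibroblast-like, interneuron-like, oligodendrocyte-like and subcortical neuron-like cells. With a minimum of 200 UMIs, 0 were higher in astrocyte-like, endothelial-like and oligodendrocyte-like cells, 1 was higher in microglia-like and 1 lower in fibroblast-like cells. With a minimum of 50 UMIs, 5 were higher in fibroblast-like and 2 in oligodendrocyte-like cells, and 2 were lower in endothelial-like cells. With TMM factors, 1 was higher in OPC-like and 1 in excitatory neuron-like cells. With each cell weighted equally, 3 were higher in astrocyte-like and endothelial-like and 0 in subcortical neuron-like cells, and lower were 2 in endothelial-like, interneuron-like and microglia-like, 5 in fibroblast-like and 0 in oligodendrocyte-like and subcortical neuron-like cells.

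With marker-gated cells, 1 was higher in OPC-like, 2 in astrocyte-like, interneuron-like and oligodendrocyte-like and 0 in microglia-like cells, and lower were 1 in astrocyte-like, 2 in interneuron-like and 0 in oligodendrocyte-like cells. There Optn in OPC-like cells turned to -0.043, and 24 of 38 members kept their highest class, against 27 at resolution 0.3. The 11 members highest in subcortical neuron-like cells changed in both by construction, since that class gave no value there. With the stricter cell filter, 2 were higher in interneuron-like, 1 in microglia-like and 0 in astrocyte-like and oligodendrocyte-like cells, and lower were 3 in interneuron-like and 0 in oligodendrocyte-like cells. Without doublet removal, 1 was higher in OPC-like, and lower were 1 in astrocyte-like and 0 in oligodendrocyte-like cells. Without integration, 1 was higher in OPC-like and excitatory neuron-like and 0 in astrocyte-like cells, and lower were 5 in fibroblast-like and 0 in subcortical neuron-like cells. At resolution 0.3, 1 was higher in excitatory neuron-like and 4 lower in endothelial-like cells, and at resolution 1.5, 0 were higher in astrocyte-like and microglia-like cells and 2 lower in microglia-like cells. With the same mix of clusters, 1 was higher in excitatory neuron-like cells. Subcortical neuron-like cells gave no value under the stricter filter, at resolution 0.3 or gated, nor gated fibroblast-like cells, since fewer than 100 cells remained in a library. The separate kinds of excitatory neuron-like cell were chosen after seeing the data.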

Other observations

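The classes with fewer than 100 cells in a library were left out of the comparisons. Ulk4 was 178 and 239.8 CPM (control and tomatidine) in ependymal-like cells, the ciliated lining of the ventricles, from 93 and 56 UMIs in 35 and 14 cells. The Poisson intervals were 144 to 218 in the control and 181 to 311 in the tomatidine library, above its highest compared class, excitatory neuron-like cells at 18.4 and 23.3 CPM. In choroid plexus-like cells Ulk4 was 20.4 and 26.3 CPM. Ulk3 in mural-like cells was 68.3 and 55.0 CPM from 13 and 10 UMIs in 38 cells of each library, with intervals of 36.4 to 117 and 26.4 to 101, against 24.8 and 24.9 CPM in microglia-like cells. Becn1 in leukocyte-like cells was 201 and 199 CPM from 32 and 31 UMIs.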
